A study of Mus musculus with 69 samples.

Results

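The genes described here are 34 genes of glycolysis and of the response to low oxygen, out of the 55367 gene symbols in the count table, and each was found by its symbol. They fall into 5 roles. Glucose and lactate transport has 4 members (Slc2a1, Slc2a3, Slc16a1 and Slc16a3), the upper steps of glycolysis 9 (Hk1, Hk2, Gpi1, Pfkl, Pfkm, Pfkp, Aldoa, Aldoc and Tpi1) and the lower steps 7 (Gapdh, Pgk1, Pgam1, Eno1, Eno2, Pkm and Ldha). The enzymes that switch the flux on or off are 3 (Pfkfb3, Pfkfb4 and Pdk1), and the oxygen sensors and hypoxia response genes are 11 (Egln1, Egln3, Ankrd37, Bnip3, Vegfa, P4ha1, P4ha2, Ndrg1, Adm, Kdm3a and Higd1a). The study asked how mouse cells that lack p53 outcompete wild-type (WT) neighbours in gastruloids, which are aggregates of mouse embryonic stem (mES) cells that form an axis and germ layers in culture. RNA of sorted cells was sequenced in bulk at 0, 48, 72, 96, 120 and 144 h. All cells derived from E14Tg2A mES cells. WT-mCherry is 1 clone with an EF1α-driven H2B-mCherry reporter, WT-emiRFP is 1 clone with a CAG-driven H2B-emiRFP670 reporter, and p53KO-emiRFP is 1 clone made from WT-emiRFP by disrupting Trp53 and selecting with Nutlin-3a. WT + WT gastruloids were seeded with 150 WT-mCherry and 150 WT-emiRFP cells, and WT + p53KO gastruloids with 150 WT-mCherry and 25 p53KO-emiRFP cells. The genotype of the neighbours therefore cannot be told apart from the number of cells seeded. Gastruloids taken at 72 h or later, the control gastruloids included, had received the Wnt agonist CHIR99021 from 48 to 72 h, and those taken at 48 h had not. From 48 h on, FACS gave 4 populations of 3 replicates each: WT-mCherry beside p53KO, p53KO-emiRFP, WT-mCherry beside WT and WT-emiRFP. The clones grown alone were sampled at 0 h, 3 libraries each, which makes 69 libraries in 23 groups.

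Glycolysis splits glucose into pyruvate, and lactate dehydrogenase and the lactate carriers let it run without respiration. When oxygen is present the prolyl hydroxylases Egln1 and Egln3 mark the hypoxia-inducible factors (HIF) for destruction. When oxygen falls, HIF accumulates, binds next to its target genes at a short core motif and raises most glycolytic enzymes, the glucose transporters, Vegfa, Bnip3 and the hydroxylases themselves, which act as a feedback brake. Embryonic stem cells and the posterior end of the vertebrate axis are known for high glycolysis.

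The libraries held 26722541 to 72981570 counts, with a median of 53098728, and the 34 members took 1.66% to 2.82% of a library's counts. Trp53, the targeted gene, had 1506 to 2589 normalized counts in the 18 p53KO-emiRFP libraries and 13902 to 27510 in the 51 WT libraries, and the ranges did not overlap. Normalized counts are counts divided by the library's size factor. No member was at 0 in any library, and the lowest raw count of any member was 8, for Adm. All 34 members passed the low-count filter in every fit. Reads of Eno1 may be split with its near-identical copy Eno1b, which had 10704 to 46162 counts per library, so Eno1 levels are uncertain. The other copies listed had at most 126 counts.

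Promoter sequence from RefSeq (GRCm38.p6) was available for 32 of the 34 members, and the 250 bases before each start were searched on both strands for the HIF core motif, spelled ACGTG or GCGTG. Overlapping matches were counted separately, so the palindrome CACGTG counts as 2 matches. At least 1 match lay in a window of 29 of 32 members (90.6%), against 41.5% of all 27025 genes in the table. Counted by window, 37 of 48 windows of members held a match (77.1%), against 38.6% of all 32851 windows. At least 3 matches were found for 10 members (31.2%) and for 7.54% of all genes. Many of the members were chosen as known hypoxia response genes, and a match is a description of the sequence, not a bound site. The 5 windows printed here belong to members on which the comparisons below turn. Bnip3, a mitophagy receptor, and P4ha1 and P4ha2, which hydroxylate collagen, were higher in WT-mCherry cells beside p53KO cells at 120 and 144 h. Pfkp, the platelet-type phosphofructokinase, was higher there and lower in p53KO-emiRFP cells at these times. Eno2, the neuronal enolase, had the greatest difference by neighbour among the members at 120 and 144 h. In Gencode M21 on the same build these genes span chr7:138890836-138909519 (Bnip3), chr10:59323296-59373304 (P4ha1), chr11:54100095-54131665 (P4ha2), chr13:6579768-6648777 (Pfkp) and chr6:124760053-124769673 (Eno2), all protein coding. The windows of Bnip3, P4ha1, P4ha2 and Pfkp held 5, 3, 3 and 3 matches, and that of Eno2 held 0. Each sequence runs 5′ to 3′ on the strand of its gene and ends at the base before the start, and capitals mark the matches.
Bnip3 (chr7:138909507-138909756, minus strand): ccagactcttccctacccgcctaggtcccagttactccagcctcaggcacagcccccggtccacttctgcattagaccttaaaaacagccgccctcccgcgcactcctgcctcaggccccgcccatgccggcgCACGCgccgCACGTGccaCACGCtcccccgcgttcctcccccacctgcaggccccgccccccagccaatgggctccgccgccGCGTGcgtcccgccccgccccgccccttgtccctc
P4ha1 (chr10:59323046-59323295, plus strand): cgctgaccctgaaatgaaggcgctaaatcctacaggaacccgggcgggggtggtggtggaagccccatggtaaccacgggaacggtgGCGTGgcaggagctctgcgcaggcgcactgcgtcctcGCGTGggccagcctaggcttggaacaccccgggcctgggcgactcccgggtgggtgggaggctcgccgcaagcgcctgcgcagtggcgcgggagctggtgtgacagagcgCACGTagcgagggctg
P4ha2 (chr11:54100674-54100923, plus strand): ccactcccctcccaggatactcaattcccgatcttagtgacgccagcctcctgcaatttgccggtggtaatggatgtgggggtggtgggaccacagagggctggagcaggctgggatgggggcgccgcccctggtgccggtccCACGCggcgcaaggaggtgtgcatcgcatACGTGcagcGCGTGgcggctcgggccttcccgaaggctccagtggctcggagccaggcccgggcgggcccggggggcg
Pfkp (chr13:6648772-6649021, minus strand): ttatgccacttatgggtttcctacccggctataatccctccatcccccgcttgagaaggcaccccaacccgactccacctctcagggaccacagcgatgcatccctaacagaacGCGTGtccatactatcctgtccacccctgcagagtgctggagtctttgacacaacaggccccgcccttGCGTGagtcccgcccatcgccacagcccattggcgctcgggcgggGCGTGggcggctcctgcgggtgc
Eno2 (chr6:124769674-124769923, minus strand): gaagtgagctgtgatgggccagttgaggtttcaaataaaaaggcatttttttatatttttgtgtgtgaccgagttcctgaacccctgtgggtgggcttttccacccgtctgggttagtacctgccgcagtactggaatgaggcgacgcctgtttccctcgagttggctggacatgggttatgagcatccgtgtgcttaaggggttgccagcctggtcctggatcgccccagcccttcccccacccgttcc

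Between 0 and 48 h, when the mES cells had been aggregated, most of the members fell in WT cells, and Slc2a3, Ndrg1 and Pfkp fell most. Of the 34 members, 8 rose and 20 fell in WT cells, with 70.3% of all genes called in either direction. In p53KO-emiRFP cells 4 rose and 19 fell, with 59.5% of all genes called. Slc2a3, the high-affinity glucose transporter GLUT3, had 63941 to 71486 (median 65913) normalized counts in the 6 WT libraries at 0 h and 6691 to 9954 (median 7291) in the 9 WT libraries at 48 h, and its log2 fold change was -3.09 ± 0.06 (SE, adjusted p = 4.04e-44). Ndrg1, a stress and hypoxia response gene, had 888 to 1478 (median 1132) at 0 h and 138 to 215 (median 174) at 48 h, a log2 fold change of -2.67 ± 0.09 (SE, adjusted p = 8.03e-33). Pfkp had 13612 to 26589.6 (median 19556) at 0 h and 3291 to 4040.4 (median 3460.2) at 48 h, a log2 fold change of -2.46 ± 0.08 (SE, adjusted p = 3.81e-35). For each of these genes the WT ranges at 0 and 48 h did not overlap. The histone demethylase Kdm3a changed by -1.90 ± 0.04 and P4ha1 by -1.77 ± 0.06 on the log2 scale. Bnip3 changed by -0.89 ± 0.06, Vegfa, the vascular growth factor, by -1.17 ± 0.07 and Hk2, the hexokinase of growing cells, by -1.31 ± 0.05. All 5 fell past the threshold. The muscle-type phosphofructokinase Pfkm moved the other way and had 2135 to 2584 (median 2235) at 0 h and 6400.1 to 7067 (median 6585) at 48 h, with a log2 fold change of 1.54 ± 0.04 (SE, adjusted p = 1.16e-40). The peptide hormone precursor Adm rose by 1.38 ± 0.31 from very low levels. The p53KO-emiRFP cells gave -3.26 ± 0.10 for Slc2a3, -2.56 ± 0.13 for Pfkp and -2.28 ± 0.15 for Ndrg1 over the same interval (log2, n = 3 per time point). Fold changes of WT cells compare means over the 3 sorted WT populations (both WT clones at 0 h). In bulk samples, fewer cells of a type and less RNA per cell cannot be told apart.

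From 48 to 72 h, around the CHIR99021 pulse, most glycolytic enzymes fell while Slc2a3 recovered. In WT cells 12 members rose and 19 fell (66.9% of all genes were called), and in p53KO-emiRFP cells 10 rose and 13 fell (46.4% of all genes). The upper steps had 1 rise and 7 falls among 9 members in WT cells, and the lower steps 2 rises and 5 falls among 7. Slc2a3 had 21708 to 34455 (median 26429.9) in WT cells at 72 h, a log2 fold change of 1.74 ± 0.06 (SE, adjusted p = 8.88e-34), and rose by 1.63 ± 0.10 in p53KO-emiRFP cells. Eno2 had 229 to 458 (median 272) at 48 h and 549.9 to 915 (median 706) at 72 h, a log2 fold change of 1.30 ± 0.10 (SE, adjusted p = 3.85e-18). The lactate exporter Slc16a3 (MCT4) had 5031 to 8423 (median 7353) at 48 h and 2066 to 3688 (median 3012) at 72 h, a log2 fold change of -1.25 ± 0.08 (SE, adjusted p = 3.92e-20). The ubiquitous glucose transporter Slc2a1 (GLUT1) fell as well, with -0.83 ± 0.05, and so did Bnip3, with -0.82 ± 0.06. At 72 h 13 of the 34 members were at their lowest WT mean of all time points (the matching share of all genes is not given). The next interval, 72 to 96 h, brought Slc2a1 back. In WT cells 15 members rose and 10 fell (58.6% of all genes were called). With WT-emiRFP cells alone standing for WT, 14 rose and 5 fell (the share of all genes is not given for that fit). In p53KO-emiRFP cells 11 rose and 10 fell (44.5% of all genes). Slc2a1 had 11415 to 13693 (median 12442) at 72 h and 40352 to 50872 (median 46120.2) at 96 h (normalized counts in WT cells), a log2 fold change of 1.86 ± 0.05 (SE, adjusted p = 3.32e-36), and rose by 2.11 ± 0.09 in p53KO-emiRFP cells. Adm had 45.4 to 106 (median 54.5) at 72 h and 104 to 227 (median 172) at 96 h, a log2 fold change of 1.44 ± 0.19 (SE, adjusted p = 2.09e-09). Of the hypoxia response genes, 8 of 11 rose and none fell in WT cells, with P4ha1 at 0.80 ± 0.06, Vegfa at 0.78 ± 0.07 and Kdm3a at 0.75 ± 0.04. The lower steps went the other way, with 1 rise and 4 falls among 7.

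Between 96 and 120 h, as the gastruloids elongated, most of the members rose in both genotypes. In WT cells 27 of 34 members rose, against 28.8% of all genes, and 1 fell (56.8% of all genes were called in either direction). In p53KO-emiRFP cells 24 rose, against 18.9% of all genes, and 2 fell (34.9% in either direction). The median log2 fold change of the members was 0.55 in WT cells and 0.51 in p53KO-emiRFP cells. By role, the WT counts of rises were 3 of 4 transporters, 8 of 9 upper steps, 4 of 7 lower steps, 2 of 3 flux switches and 10 of 11 hypoxia response genes. Pfkp had 1799 to 2853 (median 2449) normalized counts in WT cells at 96 h and 6192 to 8985 (median 7476) at 120 h, a log2 fold change of 1.67 ± 0.07 (SE, adjusted p = 4.44e-28). Ndrg1 had 300.1 to 539 (median 383) at 96 h and 855 to 1476 (median 1258) at 120 h, a log2 fold change of 1.60 ± 0.08 (SE, adjusted p = 5.67e-25). Bnip3 had 739.8 to 1185 (median 926) at 96 h and 1987 to 3288 (median 2769.8) at 120 h, a log2 fold change of 1.49 ± 0.05 (SE, adjusted p = 3.86e-31). The 9 WT libraries at 120 h lay above the 9 at 96 h for each of these 3 genes. Hk1, the housekeeping hexokinase, rose by 1.30 ± 0.04, Slc16a3 by 1.28 ± 0.08 and Ankrd37, a small HIF target, by 1.30 ± 0.11 on the log2 scale. In p53KO-emiRFP cells the greatest rises were those of the brain-type aldolase Aldoc (1.43 ± 0.11), of P4ha1 (1.38 ± 0.10) and of Pfkfb3 (1.36 ± 0.08), which makes the activator of phosphofructokinase. Adm was the 1 member that fell in WT cells, with -1.15 ± 0.18 (SE, adjusted p = 2.52e-07), and it fell by a like amount in p53KO-emiRFP cells (-1.17 ± 0.32).

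From 120 to 144 h 8 of 9 upper-step genes and 8 of 11 hypoxia response genes rose in WT cells and none of them fell. The lower steps had 2 rises and 3 falls among 7, and the transporters 1 rise and 2 falls among 4. Altogether 20 members rose and 5 fell (55.4% of all genes were called). In p53KO-emiRFP cells 11 rose and 0 fell (22.7% of all genes), and with the replicate number as a block 16 rose and 3 fell (27.2%). Without the low-count filter the p53KO-emiRFP counts were 15 higher and 2 lower, and with TMM scaling 10 higher and 2 lower. With WT-emiRFP cells alone standing for WT, 16 members rose and 1 fell. For the fits without the filter, with TMM scaling and with WT-emiRFP cells alone, the share of all genes called is not given. Pfkp reached 10363 to 19399 (median 14298) in WT cells, a log2 fold change of 0.92 ± 0.07 (SE, adjusted p = 4.82e-17), and in p53KO-emiRFP cells it rose by 0.80 ± 0.12 to 6473, 6487 and 8308. Ndrg1 rose by 0.89 ± 0.07 (SE, adjusted p = 2.59e-15) in WT cells and by 1.05 ± 0.13 in p53KO-emiRFP cells, and Hk1 by 0.75 ± 0.04 and 0.66 ± 0.06. Ldha, which turns pyruvate into lactate, fell in WT cells over this interval, with -0.29 ± 0.05 (SE, adjusted p = 1.20e-06). Across the whole course 17 of the 34 members had their highest WT mean at 144 h, among them the upper-step genes Hk1, Gpi1, Pfkl, Aldoa and Aldoc and the hypoxia response genes Egln1, Egln3, Bnip3, P4ha1 and P4ha2. The WT mean includes WT-mCherry cells beside p53KO, and the share of all genes highest at 144 h is not given. Hk2, Pfkp, Pgam1, Pkm, Ldha and Kdm3a were highest in mES cells. The WT mean moved 14.1-fold between its lowest and highest time point for Slc2a3, 12.9-fold for Ndrg1 and 10.2-fold for P4ha1. At the other end Pdk1, the kinase that closes the route from pyruvate to respiration, moved 1.17-fold. Of the 7 lower-step genes, Eno2 moved 2.91-fold, Pgk1 1.66-fold and Ldha 1.54-fold, and the others between 1.34-fold (Eno1) and 1.47-fold (Pgam1).

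**Figure D1:**
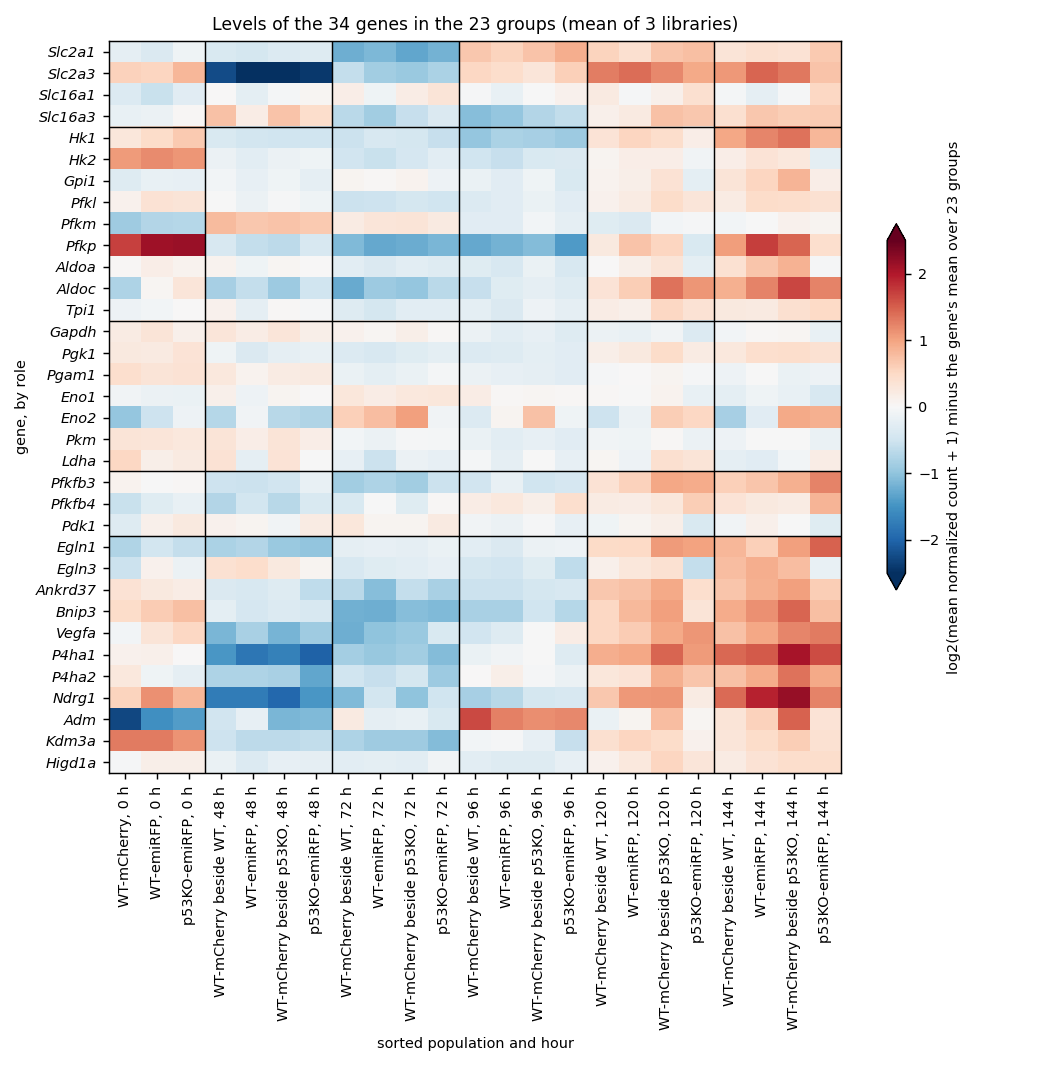
Mean levels of the 34 members in the 23 groups, drawn as log2 of the mean normalized count plus 1, minus that gene's mean over the groups, with genes in rows by role and populations in columns by time in hours. Slc2a3, Ndrg1 and Pfkp are low at 48 h, and most of the hypoxia response genes are high at 120 and 144 h.

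Where 2 or 3 members catalyse the same step, their levels can be compared per length. Counts per kilobase of exon were used for shares within a family, so the values here are percentages of the family's level. Hk1 made up 8.91% ± 0.493 (SD, n = 3) of hexokinase in WT-mCherry mES cells and 9.21% ± 0.658 in WT-emiRFP mES cells. At 144 h it made up 22.8% ± 0.337 in WT-mCherry beside WT and 25.9% ± 0.406 in p53KO-emiRFP cells, so Hk2 stayed the major form throughout. Among the phosphofructokinases, the Pfkp share was 26.7% ± 5.65 in WT-emiRFP mES cells, 5.20% ± 0.255 at 48 h and 4.73% ± 0.754 at 96 h in WT-emiRFP cells. At 144 h it was back at 19.3% ± 2.12 in those cells and at 8.99% ± 1.21 in p53KO-emiRFP cells. The 3 p53KO-emiRFP libraries lay below all 9 WT libraries. Pfkm took 11.2% ± 0.528 of the family in WT-emiRFP mES cells and 38.2% ± 0.475 at 48 h. The glucose transporters switched in the same interval. Slc2a3 made up 58.5% ± 2.25 of Slc2a1 and Slc2a3 in WT-emiRFP mES cells, 13.5% ± 1.30 at 48 h and 61.0% ± 2.83 at 144 h, when p53KO-emiRFP cells were at 44.1% ± 3.33. Of the oxygen sensors, Egln3 made up 40.5% ± 3.05 of Egln1 and Egln3 in WT-emiRFP cells at 144 h and 14.7% ± 1.32 in p53KO-emiRFP cells. The neuronal enolase Eno2 and the brain-type aldolase Aldoc, both of which move strongly in the comparisons below, never exceeded a small part of their families, with group means of at most 0.785% and 3.45%.

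**Figure D2:**
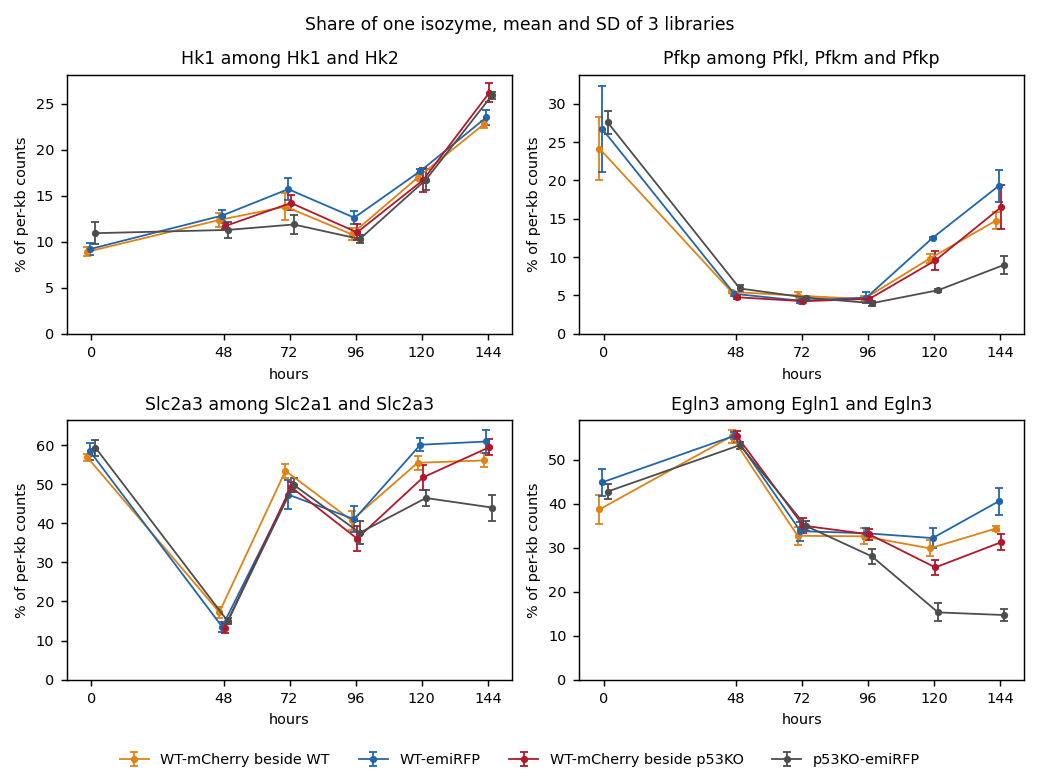
Share of 1 isozyme in its family, in percent of counts per kilobase, against time in hours, for Hk1, Pfkp, Slc2a3 and Egln3. Points are means of 3 libraries with bars of 1 SD, and lines join the points of each population. At 144 h the p53KO-emiRFP points lie below the WT points for Pfkp, Slc2a3 and Egln3.

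The comparison of p53KO-emiRFP with WT-emiRFP cells asks how cells that lack p53 differ from the line they were made from. The knockout is 1 clone, and from 48 h on the p53KO-emiRFP cells also came from other gastruloids than the WT-emiRFP cells and were seeded at 25 instead of 150 cells, so that genotype, seeded number and gastruloid cannot be told apart. Because the 2 WT clones differed as well, p53KO-emiRFP cells were also set against WT-mCherry cells beside WT in the same fits, an alternative chosen after the data were seen, in which genotype and clone cannot be told apart. In mES cells at 0 h, 0 of the 34 members passed the threshold in edgeR's quasi-likelihood test (6.13% of all genes did), 5 had an unadjusted p under 0.05, and DESeq2 called 3. With the replicate number as a block, 2 were higher and 1 lower (9.82% of all genes). Without replicate 1, 4 members were called. Against WT-mCherry mES cells 7 were higher and 1 lower (21.4% of all genes), with Aldoc at 1.10 ± 0.14 and Eno2 at 0.85 ± 0.16 on the log2 scale. The glucose transporters Slc2a1 and Slc2a3 had log2 fold changes of 0.24 ± 0.09 (SE, adjusted p = 0.137) and 0.30 ± 0.09 (SE, adjusted p = 0.0628).

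From 48 to 96 h the lactate carrier Slc16a1 was higher in p53KO-emiRFP cells, set against WT-emiRFP cells, at each time point and P4ha2 was lower, and Eno2 was lower at 48 and 72 h. Many of these early differences depended on which WT clone was the reference. At 48 h 9 members were higher and 4 lower (22% of all genes were called), and with the replicate block 16 and 6 (41.1%). With WT-mCherry cells beside WT as the reference 3 were higher and 9 lower at 48 h, the opposite balance. At 72 h the counts were 8 and 4 (29.1%), and at 96 h 5 and 3 (23.3%), or 10 and 6 with the block (38.6%). Eno2 had 208, 269 and 246 normalized counts in p53KO-emiRFP and 316, 458 and 372 in WT-emiRFP cells at 48 h, a log2 fold change of -0.67 ± 0.14 (SE, adjusted p = 0.00243). At 72 h it had 352, 438 and 362 against 706, 684 and 709, a log2 fold change of -0.86 ± 0.11 (SE, adjusted p = 4.98e-05). The 3 p53KO-emiRFP libraries lay below the 3 WT-emiRFP libraries at both times. P4ha2 was also lower at all 3 times, with -0.52 ± 0.07, -0.33 ± 0.07 and -0.30 ± 0.08. Egln3 (-0.38 ± 0.06) was lower, and Pfkfb3 (0.34 ± 0.07) and Slc2a3 (0.29 ± 0.06) were higher at 48 h, as was Pgk1, the phosphoglycerate kinase (0.18 ± 0.05). Against WT-mCherry cells beside WT, 3 of the 13 members called at 48 h were called in the same direction (Pfkfb3, Egln3 and P4ha2) and 3 in the opposite one (25.5% of all genes were called). The latter were Slc2a3 (-0.18 ± 0.06), Slc16a3 (-0.28 ± 0.07) and Ldha (-0.38 ± 0.05), whose p53KO-emiRFP levels lay between those of the WT clones. The other 7, Slc16a1, Pfkp, Tpi1, Pgk1, Eno2, Pdk1 and Egln1, were not called. Eno2 in the WT-mCherry libraries beside WT was at 234, 242 and 272, and its log2 fold change against them was -0.05 ± 0.14. At 72 h 6 of the 12 were called in the same direction (Aldoc, Eno2, Pfkfb3, Vegfa, P4ha2 and Kdm3a, 29.5% of all genes), and at 96 h 4 of the 8 (Slc2a1, Slc16a1, Vegfa and Kdm3a, 24.8%), with none opposite. Against WT-mCherry cells Slc16a1 had 0.17 ± 0.08 and Ldha -0.01 ± 0.08 at 72 h, and Pfkfb3 0.06 ± 0.07 at 96 h, none of them called. Slc16a1 (MCT1), which moves lactate in and out of cells, had 11413, 11628 and 12563 in p53KO-emiRFP and 7576, 9136 and 9622 in WT-emiRFP cells at 72 h, a log2 fold change of 0.43 ± 0.08 (SE, adjusted p = 0.000835). It was higher than in WT-emiRFP cells at every time from 48 to 144 h, and than in WT-mCherry cells from 96 h on. Vegfa had 1627, 1570.4 and 1532 against 1089, 1026 and 916 at 72 h, a log2 fold change of 0.64 ± 0.09 (SE, adjusted p = 6.10e-05), and 0.50 ± 0.07 at 96 h. The groups were apart for both genes at 72 h. Slc16a3 was higher at 48 and 72 h (0.25 ± 0.07 and 0.50 ± 0.13), and so was Ldha (0.21 ± 0.05 and 0.33 ± 0.08). At 96 h Kdm3a had 5952, 5391 and 5893 in p53KO-emiRFP and 9143, 7739 and 8179.9 in WT-emiRFP cells, a log2 fold change of -0.54 ± 0.07 (SE, adjusted p = 3.43e-05), and Slc2a1 had 57277, 57348 and 50485 against 41185, 47977 and 40352, a log2 fold change of 0.35 ± 0.08 (SE, adjusted p = 0.00345). Kdm3a was lower and Slc2a1 higher in each p53KO-emiRFP library than in any WT-emiRFP library. Pfkfb3 was lower at 96 h (-0.24 ± 0.07), and Hk2 was higher at 72 and 96 h (0.29 ± 0.08 and 0.20 ± 0.06). These counts depended on single replicates. Without replicate 1 they were 8, 5 and 5 at 48, 72 and 96 h, and without replicate 2 they were 7 at 48 h and 5 at 72 h. Slc16a1 was called at all 3 times in every fit that left out a replicate, Eno2 at 48 and 72 h, and Vegfa at 72 and 96 h.

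At 120 and 144 h the members split. Pfkp, Egln3, Ndrg1, Bnip3, Slc2a3, Aldoa and Hk1 were lower in p53KO-emiRFP cells, set against WT-emiRFP cells, and Eno2, Egln1, Slc16a1, Ldha, Pfkfb3 and Vegfa were higher. At 120 h 13 members were higher and 12 lower (51% of all genes were called), and at 144 h 9 and 14 (65.3%), so at 144 h the members' share was near that of all genes. By role at 144 h against WT-emiRFP cells, 2 transporters were higher and 1 lower, 1 upper-step gene was higher and 5 lower, 2 lower-step genes were higher and 4 lower, 2 flux switches were higher and 1 lower, and 2 hypoxia response genes were higher and 3 lower. Of the members called, 16 of 25 at 120 h and 18 of 23 at 144 h were called whichever replicate was left out, and every one kept its sign. Against WT-mCherry cells beside WT, 21 of the 25 were called in the same direction at 120 h (44.3% of all genes) and 17 of the 23 at 144 h (54%), and none in the opposite one. With that reference the counts were 12 higher and 9 lower at 120 h and 13 higher and 8 lower at 144 h, so that at 144 h the balance of higher and lower members turned. Not called there were Slc2a1, Hk2, Aldoa and Bnip3 at 120 h and Hk1, Gpi1, Gapdh, Pgam1, Pkm and Ndrg1 at 144 h. At 144 h Pfkp had -0.64 ± 0.12, Slc2a3 -0.37 ± 0.09, Aldoa -0.40 ± 0.09 and Bnip3 -0.16 ± 0.06 in that comparison, smaller differences than against WT-emiRFP cells, and Egln1 had 0.64 ± 0.06, Vegfa 0.56 ± 0.08 and Eno2 1.71 ± 0.16.

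In the upper steps Pfkp had 4081, 4068 and 4053 normalized counts in p53KO-emiRFP and 8667, 8985 and 8476 in WT-emiRFP cells at 120 h, a log2 fold change of -1.10 ± 0.06 (SE, adjusted p = 5.40e-09). At 144 h it had 6473, 6487 and 8308 against 16303, 17191 and 19399, a log2 fold change of -1.31 ± 0.12 (SE, adjusted p = 3.03e-07). Each p53KO-emiRFP library lay below each WT-emiRFP library at both times. Aldoa, the main aldolase, was lower at 144 h as well, with -0.72 ± 0.09 (SE, adjusted p = 5.22e-06). Hk2 had 8552, 8809 and 9220.3 against 13022, 12983 and 13812, a log2 fold change of -0.58 ± 0.06 (SE, adjusted p = 1.23e-06), after having been higher in p53KO-emiRFP cells at 72 and 96 h. Aldoc was higher at 120 h, with 2598, 2880.1 and 2532 against 1967, 2147 and 1542, a log2 fold change of 0.50 ± 0.14 (SE, adjusted p = 0.00812). Hk1 and the isomerase Gpi1 were lower at 120 h (-0.37 ± 0.06 and -0.39 ± 0.08) and at 144 h (-0.40 ± 0.07 and -0.37 ± 0.08).

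Among the transporters, Slc2a3 had 65581, 81870.0 and 75682 in p53KO-emiRFP and 114151, 131764 and 126713 in WT-emiRFP cells at 144 h, a log2 fold change of -0.74 ± 0.09 (SE, adjusted p = 6.55e-06). Slc2a1 had 46720.0, 48961 and 41265 against 39082, 41956 and 34336, a log2 fold change of 0.25 ± 0.10 (SE, adjusted p = 0.0441), and here the 2 groups overlapped. Slc16a1 had 12622, 15008 and 13202 against 7481, 8455 and 8349.7, a log2 fold change of 0.75 ± 0.07 (SE, adjusted p = 7.71e-07). The lactate carrier was thus higher and GLUT3 lower in the same p53KO-emiRFP libraries. In the lower steps Eno2 had 552, 697 and 508 in p53KO-emiRFP and 365, 409.9 and 326 in WT-emiRFP cells at 120 h, a log2 fold change of 0.67 ± 0.16 (SE, adjusted p = 0.00238). At 144 h it had 789.8, 709 and 778 against 378, 355 and 276, a log2 fold change of 1.18 ± 0.16 (SE, adjusted p = 1.62e-05), the opposite direction to that at 48 and 72 h. Ldha had 90348, 90327 and 87289 against 64394, 68423 and 60165, a log2 fold change of 0.47 ± 0.06 (SE, adjusted p = 1.27e-05), while the abundant enzymes Eno1, Gapdh and Pkm were lower by small amounts (-0.29 ± 0.05, -0.22 ± 0.06 and -0.17 ± 0.05). The mutase Pgam1 was higher at 72 h (0.20 ± 0.07) and lower at 144 h (-0.13 ± 0.05), and Pgk1 was not called at 120 or 144 h (-0.03 ± 0.06 and -0.04 ± 0.06).

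The 2 oxygen sensors went in opposite directions. Egln3 had 794, 855 and 922 normalized counts in p53KO-emiRFP and 1818, 1726 and 1956 in WT-emiRFP cells at 144 h, a log2 fold change of -1.10 ± 0.07 (SE, adjusted p = 1.44e-08), and -0.89 ± 0.12 at 120 h. Egln1 had 7036, 6556 and 6632 against 3826, 3732 and 3358, a log2 fold change of 0.89 ± 0.06 (SE, adjusted p = 1.10e-08), and 0.52 ± 0.07 at 120 h. Groups were apart for both genes at both times. The HIF targets were divided as well. Ndrg1 had 665, 727 and 762 against 1296, 1407 and 1258 at 120 h, a log2 fold change of -0.88 ± 0.11 (SE, adjusted p = 9.55e-06), and Bnip3 had 2598, 2545 and 2764 against 3444, 3386 and 3534 at 144 h, a log2 fold change of -0.39 ± 0.06 (SE, adjusted p = 2.77e-05). Vegfa had 4952, 4908 and 5134 against 3869.6, 4583 and 3585, a log2 fold change of 0.32 ± 0.08 (SE, adjusted p = 0.00347). Bnip3 was lower and Vegfa higher in every p53KO-emiRFP library than in any WT-emiRFP library. P4ha1, Ankrd37, Adm and Higd1a, a mitochondrial protein of hypoxic cells, did not pass the threshold against WT-emiRFP cells at any time, and neither did the liver-type phosphofructokinase Pfkl (-0.08 ± 0.06 at 144 h). Against WT-mCherry cells beside WT, P4ha1 was lower at 48 and 72 h (-0.56 ± 0.09 and -0.23 ± 0.07), and Higd1a (0.24 ± 0.05) and Pfkl (0.18 ± 0.06) were higher at 144 h. For P4ha1 the log2 fold change against WT-emiRFP cells was 0.09 ± 0.08 (SE, adjusted p = 0.401) at 120 h and 0.10 ± 0.10 (SE, adjusted p = 0.397) at 144 h. Of the flux switches, Pfkfb3 and Pfkfb4 were higher at 144 h (0.54 ± 0.06 and 0.62 ± 0.10) and Pdk1 was lower, with 6861, 7824 and 8075 against 9715, 9845 and 11384, a log2 fold change of -0.44 ± 0.08 (SE, adjusted p = 0.000328). Over all times, 9 members were called in both directions against WT-emiRFP cells (Slc2a3, Hk2, Pfkp, Pgam1, Eno2, Pfkfb3, Pdk1, Egln1 and P4ha2). The share of all genes called in both directions is not given, so this count describes the members only.

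**Figure D3:**
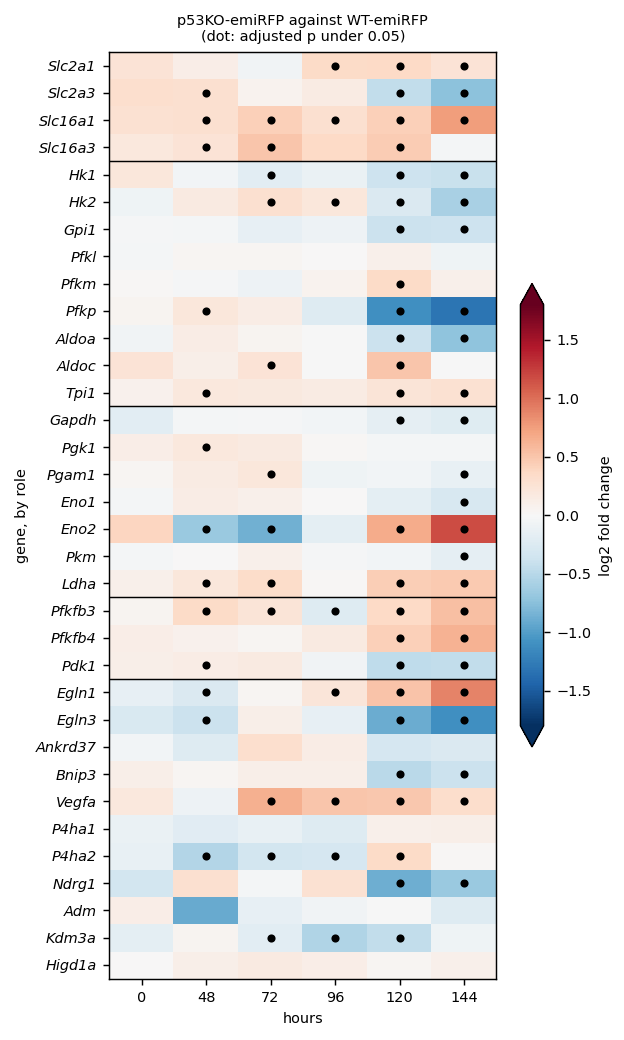
Log2 fold change of p53KO-emiRFP over WT-emiRFP cells for the 34 members (rows, by role) at 0 to 144 h (columns, in hours). Marks show an edgeR adjusted p under 0.05. Eno2 and Egln1 turn from lower at 48 h to higher at 144 h, and Pfkp, Slc2a3 and Ndrg1 are lower at 120 and 144 h.

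Markers of cell types moved beside these late differences. The 8 presomitic mesoderm markers (Tbx6, Msgn1, Dll1, Dll3, Hes7, Lfng, Rspo3 and Mesp2) were all higher in p53KO-emiRFP cells at 120 and 144 h, and their summed level was 50791 to 61915 normalized counts against 7029 to 9230.3 in WT-emiRFP cells at 120 h. At 144 h it was 14624 to 15727 normalized counts against 1995 to 2669 in WT-emiRFP cells. None of the 8 was at 0 in all libraries of these groups. Of the haematoendothelial markers, 1 was higher and 3 were lower at 144 h among 8 tested, with summed levels of 2272 to 2736 against 7405 to 7458, and none was at 0 in all libraries of a group. The part of these markers in the differences of the members was not tested.

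WT-mCherry cells beside p53KO-emiRFP cells were compared with the same clone beside WT-emiRFP cells, which asks whether neighbours change the cells they outcompete. Late in culture the comparison went 1 way, with 18 members higher at 120 h (3.43% of all genes), 19 at 144 h (10.1% of all genes) and none lower. The 120 h count was 2 without replicate 1. At 48 h 0 members were higher and 1 was lower (0.0735% of all genes were called), and with the replicate block 0 and 6 (4.91%). At 72 h 0 members passed edgeR's test (0.559%), 6 had an unadjusted p under 0.05, DESeq2 called 1, and with the block 2 were higher and 2 lower (2.27%). Slc2a3 was the member called at 48 h, with 6772, 7159 and 7908 normalized counts beside p53KO and 9124, 9799 and 9954 beside WT cells, a log2 fold change of -0.40 ± 0.06 (SE, adjusted p = 0.00744). It did not pass without replicate 1 or without replicate 2. At 96 h 3 members were higher and 0 lower (3.93% of all genes), or 12 and 4 with the block (20.9%). Eno2 had 787, 786 and 469.7 beside p53KO and 341, 363 and 264 beside WT cells, a log2 fold change of 1.08 ± 0.17 (SE, adjusted p = 0.00768). Vegfa had 1944, 2103 and 2064 against 1427, 1527 and 1412, a log2 fold change of 0.48 ± 0.07 (SE, adjusted p = 0.00518), and Aldoc had 1034, 1007 and 1145 against 834, 814 and 822, a log2 fold change of 0.37 ± 0.07 (SE, adjusted p = 0.017). The 3 calls at 96 h fell to 0 without replicate 1 and to 1 without replicate 2.

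At 120 h Eno2, Aldoc, the activator gene Pfkfb3, the lactate exporter Slc16a3, the oxygen sensor Egln1 and 6 further hypoxia response genes were higher in WT-mCherry cells beside p53KO. The 18 members that were higher compare with 3.43% of all genes (5.95% were called in either direction). The median log2 fold change of the 34 members was 0.30 and 32 were positive, beside a median of -0.01 over all genes. By role they were 1 of 4 transporters, 5 of 9 upper steps, 3 of 7 lower steps, 2 of 3 flux switches and 7 of 11 hypoxia response genes. Eno2 had 659, 718 and 509 normalized counts beside p53KO and 249.9, 333 and 269 beside WT cells, a log2 fold change of 1.15 ± 0.16 (SE, adjusted p = 0.00103). Aldoc had 2941, 3424 and 3064 against 1504, 1943 and 1257, a log2 fold change of 1.00 ± 0.14 (SE, adjusted p = 0.00121). Pfkfb3 had 2961, 3436 and 3485 against 2386, 2218 and 1889, a log2 fold change of 0.61 ± 0.09 (SE, adjusted p = 0.00235). All 3 libraries beside p53KO were above all 3 beside WT for these genes. Slc16a3 had 7405, 8947 and 7889.6 against 5231, 6332 and 4304, a log2 fold change of 0.61 ± 0.12 (SE, adjusted p = 0.0101). P4ha2 had 1881, 2011 and 1819.6 against 1255, 1389.9 and 1113, a log2 fold change of 0.61 ± 0.11 (SE, adjusted p = 0.00528). Egln1 had 4893, 5022 and 5166 against 3520.1, 3531 and 3116, a log2 fold change of 0.57 ± 0.07 (SE, adjusted p = 0.000477). For each of them too the groups were apart. The other hypoxia response genes called were P4ha1 (0.55 ± 0.08), Bnip3 (0.51 ± 0.08), Ndrg1 (0.43 ± 0.10), Vegfa (0.43 ± 0.07) and Higd1a (0.43 ± 0.08). Ldha had 102664, 107534 and 99588 against 84478, 85504 and 73077, a log2 fold change of 0.35 ± 0.07 (SE, adjusted p = 0.00803). Higher as well were Pdk1, with 0.24 ± 0.06, and Pgk1, with 0.32 ± 0.06. Slc2a1 and Hk2 were not called, with 0.14 ± 0.10 (SE, adjusted p = 0.487) and 0.11 ± 0.08 (SE, adjusted p = 0.487). The 120 h count leans on 2 of the replicates. It was 2 without replicate 1 and 11 without replicate 3, all 18 members kept a positive sign, and Pfkfb3 and Egln1 were called whichever replicate was left out.

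At 144 h most of the higher members were upper-step enzymes and hypoxia response genes, the lower-step enzyme Eno2 had the greatest rise, and no transporter was among them. The count of 19 compares with 10.1% of all genes (25.5% were called in either direction), the median of the 34 members was 0.23 and 31 were positive, beside a median of -0.03 over all genes. They were 7 of 9 upper steps, 2 of 7 lower steps, 1 of 3 flux switches and 9 of 11 hypoxia response genes. Eno2 had 847, 759.7 and 744 normalized counts beside p53KO and 249.5, 279 and 164 beside WT cells, a log2 fold change of 1.75 ± 0.16 (SE, adjusted p = 2.83e-05), or 3.37-fold. The lowest library beside p53KO was above the highest beside WT. Aldoc had 3951, 4009 and 3792 against 2278, 2611 and 1945, a log2 fold change of 0.78 ± 0.10 (SE, adjusted p = 0.000167).

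Of the hypoxia response genes, Ndrg1 had 2719, 3243 and 2479 against 1564, 2000.3 and 1479.5, a log2 fold change of 0.74 ± 0.12 (SE, adjusted p = 0.000901). P4ha1 had 8767, 9446 and 7897 against 5442, 6444 and 4863, a log2 fold change of 0.64 ± 0.10 (SE, adjusted p = 0.000643), and P4ha2 had 2615, 2952 and 2334 against 1824, 1872 and 1481, a log2 fold change of 0.61 ± 0.11 (SE, adjusted p = 0.00189). Bnip3 had 4543, 4240.3 and 4060.2 against 2992, 3018 and 2805, a log2 fold change of 0.54 ± 0.06 (SE, adjusted p = 5.86e-05). The groups were apart for these 4 genes. Adm had 177, 238 and 114 against 54.0, 117 and 63.9, a log2 fold change of 1.15 ± 0.35 (SE, adjusted p = 0.0296), and its groups overlapped. Vegfa (0.49 ± 0.08) and Kdm3a (0.31 ± 0.06) were also higher, and in the upper steps Gpi1 (0.54 ± 0.08), Aldoa (0.50 ± 0.09), Pfkp (0.41 ± 0.12) and Hk1 (0.38 ± 0.07). Pgk1, of the lower steps, had 0.19 ± 0.06 and the flux switch Pfkfb3 0.29 ± 0.06. The widely used transporter and hexokinase were not called. Slc2a1 had 37357, 39956 and 35079 against 36180.1, 41718 and 31488, a log2 fold change of 0.04 ± 0.10 (SE, adjusted p = 0.817), and Hk2 had 12547, 11468 and 13603 against 11451, 11487 and 11934, a log2 fold change of 0.11 ± 0.06 (SE, adjusted p = 0.202). Ldha, with 0.16 ± 0.06 (SE, adjusted p = 0.0808), and Pdk1, with 0.08 ± 0.08 (SE, adjusted p = 0.5), did not pass either. Whichever replicate was left out, 11 of the 19 were called: Hk1, Gpi1, Aldoc, Eno2, Pfkfb3, Bnip3, Vegfa, P4ha1, P4ha2, Ndrg1 and Kdm3a. Over all times 23 members were called higher beside p53KO at least once, and 10 were never called (Slc2a1, Slc16a1, Hk2, Gapdh, Pgam1, Eno1, Pkm, Pfkfb4, Egln3 and Ankrd37). The share of all genes called higher at least once is not given, so these counts describe the members only.

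**Figure D4:**
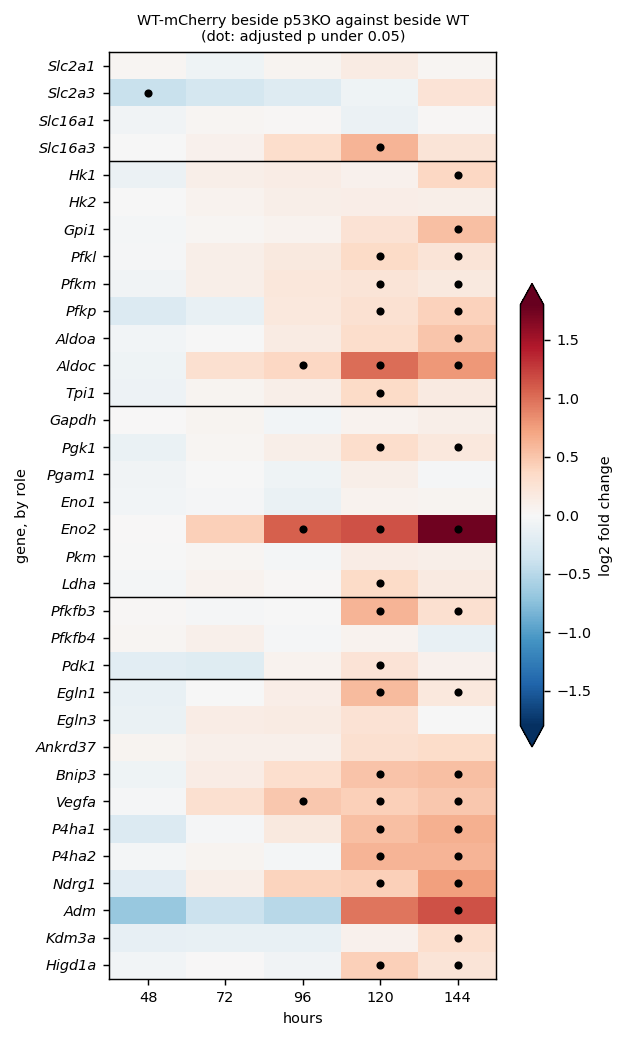
Log2 fold change of WT-mCherry cells beside p53KO over WT-mCherry cells beside WT for the 34 members (rows, by role) at 48 to 144 h (columns, in hours). Marks show an edgeR adjusted p under 0.05. The 18 marks at 120 h and the 19 at 144 h are all on rises, and Eno2 is marked from 96 h on.

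Other genes moved with the neighbour as well. Of the 8 presomitic mesoderm markers, 8 were higher in WT-mCherry cells beside p53KO at 120 h, with summed levels of 24467 to 30639.7 against 11791 to 15376 normalized counts, and at 144 h 6 were higher and 1 lower, with 3319 to 4199 against 3706 to 4101. The haematoendothelial markers had 0 higher and 4 lower among 8 at 144 h. Of the 3 genes that mark the emiRFP clones (H2bc14, H2bc7 and H2bc21), 2 were higher in the WT-mCherry cells beside p53KO at 96, 120 and 144 h. Their summed level was 196 to 562 beside p53KO and 85.7 to 191 beside WT at 96 h, and 383 to 741 and 154 to 228 at 120 h. At 144 h it was 211 to 1327 beside p53KO, 55.1 to 248 beside WT and 7811 to 8479 in p53KO-emiRFP cells, and none was at 0. The part of these genes in the differences of the members was not tested.

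**Figure D5:**
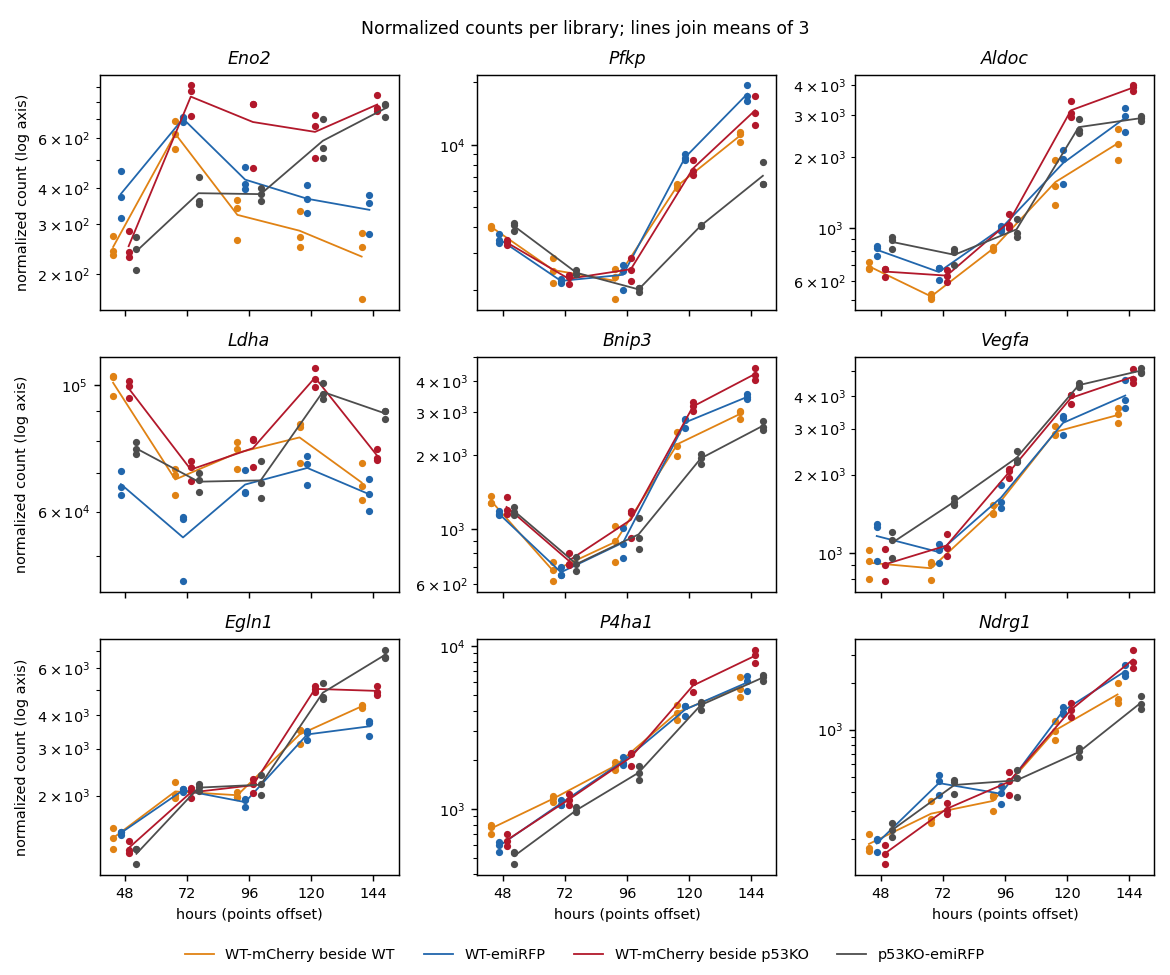
Normalized counts of Eno2, Pfkp, Aldoc, Ldha, Bnip3, Vegfa, Egln1, P4ha1 and Ndrg1 in the 4 sorted populations from 48 to 144 h, on log axes, with 1 point per library and lines through the means. Beside p53KO, WT-mCherry cells are above WT-mCherry cells beside WT for Eno2, Aldoc, P4ha1 and Ndrg1 at 144 h, and p53KO-emiRFP cells are the lowest for Pfkp at 120 and 144 h.

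Set side by side, the genotype and the neighbour comparison went together for some members and apart for others. They share no library, but the p53KO-emiRFP cells and the WT-mCherry cells beside them were sorted from the same gastruloids. The 2 reference populations, WT-emiRFP and WT-mCherry beside WT, also came from shared gastruloids, so the 2 comparisons are not independent. At 120 h 10 members were higher in both (Slc16a3, Pfkm, Aldoc, Tpi1, Eno2, Ldha, Pfkfb3, Egln1, Vegfa and P4ha2), while 2.14% of all genes were. Another 4 were higher in WT-mCherry cells beside p53KO and lower in p53KO-emiRFP cells (Pfkp, Pdk1, Bnip3 and Ndrg1), as were 0.557% of all genes. At 144 h 4 members were higher in both (Eno2, Pfkfb3, Egln1 and Vegfa, with 1.72% of all genes) and 6 were opposite (Hk1, Gpi1, Pfkp, Aldoa, Bnip3 and Ndrg1, with 5.75%). Pfkp shows the opposite pattern, with 0.41 by neighbour and -1.31 by genotype on the log2 scale at 144 h, and Eno2 the shared one, with 1.75 and 1.18. Bnip3 had 0.54 and -0.39, and Ndrg1 0.74 and -0.67. Against WT-mCherry cells beside WT at 144 h the p53KO-emiRFP cells had -0.16 ± 0.06 for Bnip3, -0.64 ± 0.12 for Pfkp and -0.40 ± 0.09 for Aldoa. Ndrg1, with -0.18 ± 0.12, Hk1 and Gpi1 were not called there, so for these the opposite pattern at 144 h rests on the WT-emiRFP reference. With the WT-mCherry reference at 120 h, Ndrg1 (-0.47 ± 0.11), Pfkp (-0.64 ± 0.06) and Pdk1 (-0.27 ± 0.06) were lower too. Bnip3 was not called (-0.19 ± 0.08), so its opposite pattern at 120 h rests on the WT-emiRFP reference.

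The 2 WT clones of WT + WT gastruloids show how far cells of the same genotype differed. At 0 h 3 members were higher and 0 lower in WT-emiRFP than in WT-mCherry cells (11.1% of all genes were called), and at 48 h the counts were 2 higher and 10 lower (8.89%). The 72 h gastruloids had 3 higher and 1 lower (7.64%), those of 96 h 1 higher and 0 lower (2.15%), and those of 120 h 1 of each (1.24%). At 144 h 13 were higher and 1 lower (23.8%). With the replicate block the totals from 0 to 144 h were 10, 24, 8, 12, 10 and 22, with 17.3%, 28.8%, 16.2%, 16%, 10.8% and 33.9% of all genes called, so the order of the time points depends on the fit. With the block 3 members were higher and 5 lower at 72 h, and 5 higher and 7 lower at 96 h, so the balance turned at these times. At 0 h Aldoc (0.85 ± 0.14), Egln3 (0.66 ± 0.14) and Ndrg1 (0.61 ± 0.11) were higher in WT-emiRFP mES cells. At 48 h Eno2 was higher in WT-emiRFP cells (0.62 ± 0.14), and P4ha1 (-0.36 ± 0.09) and Tpi1 (-0.33 ± 0.05), the triose phosphate isomerase, were lower. Ldha had 70607, 66391 and 64094 normalized counts in WT-emiRFP and 104087, 103318 and 95944 in WT-mCherry cells, a log2 fold change of -0.59 ± 0.05 (SE, adjusted p = 2.59e-06), and Slc16a3 (-0.53 ± 0.07) and Slc2a3 (-0.47 ± 0.06) were lower with it. At 72 h Ndrg1 (0.65 ± 0.14), Pfkfb4 (0.38 ± 0.11) and Aldoc (0.34 ± 0.08) were higher and Ldha (-0.34 ± 0.08) was lower. Pfkfb3 was the member called at 96 h (0.30 ± 0.07), and Pfkp (0.46 ± 0.06) and Slc16a1 (-0.25 ± 0.06) those at 120 h. At 144 h Pfkp had 16303, 17191 and 19399 in WT-emiRFP and 11494, 10363 and 11224 in WT-mCherry cells, a log2 fold change of 0.68 ± 0.12 (SE, adjusted p = 0.00109), and Eno2 (0.53 ± 0.16) and Ndrg1 (0.49 ± 0.12) were higher as well. Leaving out 1 replicate moved these counts strongly. Without replicate 1 they were 7, 4, 0, 0, 0 and 3 from 0 to 144 h, and without replicate 2 they were 0, 4, 0, 0, 2 and 8. Without replicate 3 they were 3, 10, 6, 0, 1 and 5.

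Whether an effect changed with time was tested as a difference of effects, 144 h minus 48 h, in the fit of all 69 libraries. The genotype effect changed for 18 members, 6 upwards and 12 downwards (50.2% of all genes were called). It moved up for Eno2 by 1.84 ± 0.24 (SE, adjusted p = 2.14e-09), for Egln1 by 1.15 ± 0.10 and for P4ha2 by 0.55 ± 0.15 on the log2 scale, and down for Pfkp, with -1.52 ± 0.17 (SE, adjusted p = 4.85e-11), Slc2a3, with -1.03 ± 0.13, and Ndrg1, with -0.96 ± 0.21. The members' share was near that of all genes. With WT-mCherry cells beside WT as the reference, 12 members changed upwards and 4 downwards (36.1% of all genes), and 8 of the 18 were called in the same direction. The change was then 1.76 ± 0.24 for Eno2, 0.84 ± 0.10 for Egln1, 0.74 ± 0.15 for P4ha2 and -0.65 ± 0.17 for Pfkp, while Slc2a3 (-0.19 ± 0.13) and Ndrg1 (-0.47 ± 0.21) were not called. Against WT-emiRFP cells the change of P4ha2 was not called without replicate 1 (adjusted p = 0.0804 in edgeR). The neighbour effect changed for 17 members, all upwards, against 4.02% of all genes (9.1% in either direction). The greatest changes were those of Adm, with 1.82 ± 0.51 (SE, adjusted p = 0.0145), Eno2, with 1.74 ± 0.24 (SE, adjusted p = 1.31e-06), and Ndrg1, with 0.95 ± 0.21 (SE, adjusted p = 0.00156). Adm was not called without replicate 1 or without replicate 3 (adjusted p = 0.141 and 0.175 in edgeR), while Slc2a3, Hk1, Gpi1, Aldoc, Eno2, P4ha1 and Ndrg1 were called whichever replicate was left out. Without replicate 1 the neighbour effect changed for 9 members, and without replicate 2 for 11.

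The same 2 pathways hold other genes, and 2 further lists describe them: 40 genes of oxygen sensing and hypoxia and 32 of glycolysis and pyruvate metabolism. In WT-mCherry cells beside p53KO the other hypoxia genes had 14 higher and 2 lower of 40 tested at 120 h, where 5.95% of all genes were called, and 15 higher and 3 lower of 40 tested at 144 h, where 25.5% were. The HIF-induced repressors Bhlhe40 and Bhlhe41 were among them, with 1.12 ± 0.10 and 1.76 ± 0.21 at 144 h, and so was Epas1, which encodes HIF-2α (0.79 ± 0.24). Nrn1, a neuritin gene, was higher at 120 h (2.28 ± 0.42). The other glycolysis genes had 4 higher and 1 lower of 31 tested at 120 h and 6 higher and 3 lower of 31 tested at 144 h, a share near that of all genes at 144 h. Ldhb, the heart-type lactate dehydrogenase (0.81 ± 0.06), the kinase Pdk4 (0.74 ± 0.11) and the mitochondrial pyruvate carrier subunit Mpc1 (0.67 ± 0.13) were higher at 144 h, and the muscle enolase Eno3 was lower (-0.59 ± 0.13). In p53KO-emiRFP against WT-emiRFP cells at 144 h the other hypoxia genes had 21 higher and 11 lower of 40 tested, and the other glycolysis genes 9 higher and 16 lower of 31 tested, beside 65.3% of all genes called. Here Epas1 was lower (-2.38 ± 0.27), as was Pdk4 (-2.09 ± 0.13), while the collagen crosslinker Lox was higher (1.69 ± 0.42). Epas1 and Pdk4 therefore had the opposite sign to that in the WT-mCherry cells beside p53KO. Between 96 and 120 h the other hypoxia genes had 28 higher and 6 lower of 40 tested in WT cells and 28 higher and 2 lower of 40 tested in p53KO-emiRFP cells, and the other glycolysis genes 18 higher and 8 lower of 31 tested and 11 higher and 9 lower of 31 tested. Over this interval 56.8% of all genes were called in WT cells and 34.9% in p53KO-emiRFP cells.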

How the data were processed

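The 69 libraries of bulk RNA were sequenced by the authors, who trimmed the reads with Trim Galore 0.6.7, aligned them to the mouse genome GRCm38.p6 with STAR 2.7.11b and deposited raw counts of uniquely mapped reads per gene symbol. How the counting used strand is not given in the sources used here, so antisense partners cannot be told apart. The study describes its replicates as independent experiments, and the labels number them 1 to 3.

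Counts were divided by size factors, medians of ratios over all 69 libraries. Populations of 1 time point were compared in 1 fit of its 12 libraries (9 at 0 h), and time points and differences of effects in 1 fit of all 69 (R 4.3.3, edgeR 4.0.16, quasi-likelihood test after filterByExpr). The Benjamini-Hochberg adjustment ran over all genes tested, and adjusted p under 0.05 was the threshold. Errors of fold changes are standard errors with 3 libraries per group, and the intervals behind them cover these 3 replicates only. WT changes over time average the sorted WT groups, 9 libraries per time point (6 at 0 h), which the fit took as independent. These libraries carry replicate numbers 1 to 3, and same-numbered ones correlated. The errors and p-values of WT changes therefore do not come from 9 independent samples. The share of all genes called is printed beside the members' counts of the main fits, of the WT-mCherry reference and of the block. It is not given for the other fits, nor for counts over several time points. DESeq2 1.42.0 was an alternative, with TMM scaling, no low-count filter, a replicate block, all 69 libraries in each fit, WT-emiRFP cells alone for the WT time course, and each replicate left out. WT-mCherry cells beside WT as the reference of the genotype comparison were added after the data were seen.

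The members and lists were chosen with earlier results of these data known. Values per library go to at most 6 members per comparison with the greatest fold changes past the threshold and to Slc2a1, Hk2, Ldha, Pdk1, Bnip3 and Vegfa in the late comparisons, and the time and clone comparisons are given mainly as ranges and fold changes. Of other lists at most 3 rises and 3 falls are named, and 1 gene is not reported here. Lengths for isozyme shares are exon lengths in Gencode M21.

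Replicate numbers were checked as pairs. Deviations from group means of same-numbered libraries of 1 time point correlated at 0.0406 to 0.688 (median 0.319, 99 pairs, 14106 genes, over 0.1 in 93 pairs), and the block is printed beside the counts of members that it moves by over 1.5 times. Between replicates at most 1.35% of genes had equal counts.

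On simulated data with 200 genes changed 2-fold in 18901 genes, edgeR recovered 97% for the genotype comparison at 120 h, and 2.51% of its calls fell on unchanged genes. DESeq2 gave 97% and 9.35%. For WT cells from 96 to 120 h, edgeR recovered 100% in 21121 genes, and 6.10% of its calls fell on unchanged genes. The simulated libraries were independent, and all genes had the same dispersion. These rates therefore do not cover correlated replicates or the larger shares of genes called in the data. Other experiments of the study were not analysed here.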

Additional observations from a re-analysis of the deposited data

Results flagged for a closer look

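The effects of genotype and of neighbour differed between 144 h and 48 h for the members named here, each by a test of the difference itself in edgeR's fit of all 69 libraries. The genotype effect changed for 18 of 34 members, while 50.2% of all genes were called, so the count is near that of all genes. On the log2 scale the change was 1.84 for Eno2, 1.15 for Egln1 and 0.55 for P4ha2 upwards, and -1.52 for Pfkp, -1.03 for Slc2a3 and -0.96 for Ndrg1 downwards. With WT-mCherry cells beside WT as the reference, the changes of Slc2a3 (-0.19) and Ndrg1 (-0.47) were not called, that of Pfkp was -0.65, and those of Eno2, Egln1 and P4ha2 were 1.76, 0.84 and 0.74. The difference between the WT clones itself turned from lower to higher in WT-emiRFP cells for Slc2a3 and Pfkp between 48 and 144 h. The neighbour effect changed for 17 members (9.1% of all genes were called), with 1.82 for Adm, 1.74 for Eno2 and 0.95 for Ndrg1. Eno2 moved upwards under both. The change of Adm was not called without replicate 1 or without replicate 3, and that of P4ha2 by genotype not without replicate 1. Presomitic mesoderm markers and marker genes of the emiRFP clones also moved between these groups late in culture, and their part in these changes was not tested. Groups of 3 libraries are too small for a check of single libraries that stand apart.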

How the results depend on the processing

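The counts of members called at 120 and 144 h by genotype and by neighbour stayed within 1.5 times under TMM scaling, no low-count filter, the replicate block, DESeq2 and the fit of all 69 libraries. TMM moved the median of all genes by at most 0.0369 on the log2 scale. For members that passed the threshold in at least 1 fit of a comparison, 305 values newly passed it under an alternative, 374 no longer passed it, 24 turned their sign while past it in the main or the alternative fit, and the other 4183 stayed on their side of it. Turns of sign between values that did not pass are not listed. The cause of the changes below was not tested.

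With the replicate block, which groups libraries of the same replicate number, the counts became 3, 22 and 16 for genotype at 0, 48 and 96 h, 6, 4 and 16 for neighbour at 48, 72 and 96 h, 10, 24, 8, 12, 10 and 22 for the clones from 0 to 144 h, and 19 for p53KO-emiRFP cells from 120 to 144 h. It moved no other count of members by over 1.5 times. Without the low-count filter they were 1 and 13 for genotype at 0 and 96 h, 2, 2 and 11 for neighbour at 48, 72 and 96 h, 7, 5 and 5 for the clones at 0, 96 and 120 h, and 17 for p53KO-emiRFP cells from 120 to 144 h. DESeq2 gave 3 for genotype at 0 h, 3, 1 and 5 for neighbour at 48, 72 and 96 h, and 5, 2 and 4 for the clones at 0, 96 and 120 h. With all 69 libraries in the fit, the counts were 5 and 7 for genotype at 0 and 48 h, 0 for neighbour at 48 h and 13 for the clones at 0 h.

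Leaving out 1 replicate gave 0 to 4, 7 to 9, 5 to 8, 5 to 6, 17 to 24 and 18 to 22 for genotype from 0 to 144 h. It gave 0 to 1, 0 to 0, 0 to 3, 2 to 19 and 13 to 17 for neighbour from 48 to 144 h, and 0 to 7, 4 to 10, 0 to 6, 0 to 0, 0 to 2 and 3 to 8 for the clones from 0 to 144 h. The neighbour effect then changed for 9 to 13 members and the genotype effect for 14 to 16. The WT intervals gave 25 to 27, 29 to 30, 22 to 23, 27 to 28 and 19 to 21, and the p53KO-emiRFP intervals 20 to 21, 19 to 22, 16 to 19, 23 to 24 and 9 to 12.

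With WT-emiRFP cells alone, 5 small WT changes turned their sign: Gpi1 (-0.0051) and Pdk1 (-0.055) from 0 to 48 h, Pdk1 (-0.012) and Adm (-0.020) from 48 to 72 h, and Ndrg1 (-0.23) from 72 to 96 h. Leaving out 1 replicate put Pdk1 between -0.0014 (without replicate 1) and 0.20 from 0 to 48 h. Adm, with as few as 8 counts in a library, is the member that depth limits most.

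With WT-mCherry cells beside WT as the reference of the genotype comparison, an alternative chosen after the data were seen, 8 members were called at 0 h, and the other genotype totals stayed within 1.5 times. The balance did not: it went from 9 higher and 4 lower to 3 and 9 at 48 h, and from 9 and 14 to 13 and 8 at 144 h. Among members past the threshold against either WT clone, signs turned at 48 h for Slc2a3 (-0.18), Slc16a3 (-0.28), Tpi1 (-0.14), Pgk1 (-0.072), Pkm (-0.16) and Ldha (-0.38), at 72 h for Ldha (-0.013) and Ndrg1 (0.61), at 96 h for Aldoc (0.27), Eno1 (-0.15) and Pfkfb3 (0.060), and at 144 h for Slc16a3 (0.24), Pfkl (0.18) and Aldoc (0.35). Among members past it there, the change of the genotype effect turned for Slc16a3 (0.52), Pfkl (0.28), Pgam1 (0.035) and Higd1a (0.31). Members of this set not called against WT-emiRFP cells were Pkm at 48 h, Ndrg1 at 72 h, Aldoc and Eno1 at 96 h, and Slc16a3, Pfkl, Aldoc and Higd1a.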
